A study of Bos taurus with 81 samples.

Results

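The regions described here are 11276 stretches of 5 kb on the bovine autosomes that were called marked by trimethylation of lysine 27 of histone H3 (H3K27me3) in the blastocyst. At the earlier stages listed below they were not called marked, though an earlier list could cover less than 50% of a stretch. They were chosen by the deposited H3K27me3 peak lists themselves. Autosomes 1 to 29 were divided into 497623 bins of 5 kb counted from the first base, and a bin was called marked in a list when peaks covered at least 50% of it. A bin was called new when it was marked in both blastocyst lists and in none of the 10 lists of the germinal vesicle oocyte, the 2-cell, 4-cell and 8-cell embryo and the morula. New bins made up 2.27% of all autosomal bins, 56.4 Mb in all, and 2.87% of the 392217 bins marked in no earlier list. These counts follow from the rule and are a description, as are all H3K27me3 values of those 12 lists.

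The study profiled H3K4me3, H3K27ac, H3K27me3 and H3K9me3 in cattle by CUT&Tag, in which an antibody directs a transposase to the marked chromatin, with 2 libraries per mark and group. Its groups were oocytes at the germinal vesicle stage taken before maturation (GV) and in vitro produced embryos with 2 cells (2C, 32 h after insemination), 4 cells (4C, 44 h) and 8 cells (8C, 56 h), morulae (MO, 122 h) and blastocysts (BL, 172 h). A further 8-cell group (8A) was cultured with 50 µg/ml α-amanitin, an inhibitor of transcription, and 2 groups were parts of the blastocyst: its inner cell mass (ICM), freed by immunosurgery, and its trophectoderm (TE), taken with a micro scalpel. ATAC-seq, which reads open chromatin, was run with 3 libraries each on BL, ICM and TE. Each library pooled about 500 oocytes or 1000 to 1500 blastomeres, so no value refers to a single embryo, and nothing in the labels says that the replicates came from separate collections. The purity of the ICM and TE fractions was not checked here, because genes could not be placed on these coordinates.

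H3K27me3 is written by Polycomb repressive complex 2 and is found over silent developmental genes and over broad silent domains. The complex can bind the mark it has made, which is how existing domains can be copied and extended. H3K27ac occupies the same lysine, so one histone tail cannot carry both, and it accompanies active enhancers and promoters. H3K4me3 sits at promoters and, in oocytes, also in broad domains away from them, and H3K9me3 is the mark of constitutive heterochromatin. The blastocyst is the first stage with separate lineages, the ICM that gives rise to the embryo and the TE that gives rise to the placenta.

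Of the 49950 bins marked in both BL lists, 22.6% were new, and the other 38674 had been marked in at least 1 earlier list and are called older BL bins below. The 373730 bins marked in none of the 12 lists are called unmarked. A further 7211 bins without earlier H3K27me3 were marked in 1 BL list only, 2792 in replicate 1 and 4419 in replicate 2, and were not members. The H3K27me3 lists covered 271 and 281 Mb of the autosomes at BL. At GV they covered 238 Mb in each replicate, and in the 2C, 4C, 8C and MO lists between 110.0 and 163 Mb. The count moved with the length of the lists: with every H3K27me3 list shortened by the authors' score to the same 110.0 Mb, 3028 bins were new. The sequencing depth behind the lists is unknown.

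New H3K27me3 lay mostly in short stretches. Joined where they touched, the bins formed 6985 runs, of which 4417 were a single bin, 1620 were 2 bins and 948 were 3 or more bins long. Single bins held 39.2% of the members and runs of 3 or more bins held 32.1%. The longest run was 14 bins, or 70 kb.

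Many members were far from the threshold and some were close to it. The lower of the 2 BL coverages was complete in 4466 members (39.6%) and between 50% and 60% in 1214 (10.8%), while 2118 bins just outside the rule had a lower coverage of 40% to 50%. On the earlier side, 7744 members (68.7%) had no base of earlier H3K27me3, against 92.7% of unmarked bins. In 1266 members an earlier list covered 40% to 50% of the bin, and 1188 bins marked in both BL lists were kept out by an earlier coverage of 50% to 60%.

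An earlier library that took no part in the choice gives a check on how empty the bins were before the blastocyst. Chosen without MO replicate 1, the new bins were marked in that library in 10.4% of cases, and for MO replicate 2 the share was 6.31%. The shares were 9.49% and 5.36% for the GV replicates, 2.31% and 1.32% for 4C, 1.34% and 1.37% for 8C, and 0.336% and 0.757% for 2C. Over all bins free of H3K27me3 in the other earlier lists, the same shares were 0.690% and 0.367% for MO, 1.75% and 1.88% for GV, 0.636% and 0.485% for 4C, 0.425% and 0.451% for 8C, and 0.297% and 0.323% for 2C. The library left out thus marked the new bins most often at MO and GV, and 2C replicate 1 marked them about as often as any bin.

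The 8A lists were not used by the rule. They marked 1.73% and 2.23% of the new bins, against 6.02% and 6.34% of all autosomal bins and 0.287% and 0.345% of unmarked bins. Both 8A lists marked 72 new bins (0.639%), where the background over all bins was 4.94%. The 8A lists thus marked new bins less often than all bins and more often than unmarked bins. All bins include those with earlier H3K27me3, which the rule keeps out of the new bins. The lower share against all bins is therefore partly set by the rule.

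New H3K27me3 lay close to older H3K27me3. The gap from a bin to the nearest bin marked in any earlier list had a median of 5 kb (quartiles 0 and 15 kb), against 50 kb (quartiles 10 and 155 kb) for unmarked bins. Of the new bins, 4891 (43.4%) touched an older bin, where the background over all bins free of earlier H3K27me3 was 13.5% and the share of unmarked bins was 12.1%. Older bins lay directly on both sides of 1053 new bins (9.34%), against 1.48% of unmarked bins. Only 591 new bins (5.24%) lay 100.0 kb or more from older H3K27me3, against 34.9% of unmarked bins. The new share fell at every step of distance: it was 9.26% of the bins that touched an older bin, 5.63% at a gap of 5 kb, 4.00% at 10 to 15 kb, 2.18% at 20 to 45 kb, 0.970% at 50 to 95 kb and 0.449% beyond. A new bin could still be covered in part by an older peak, and the share of bin edges in this closeness was not tested. With older H3K27me3 taken as the bins in both MO lists, 17.4% of new bins and 1.29% of unmarked bins touched it. With 2 kb bins the touching share was 26.3%.

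**Figure D1:**
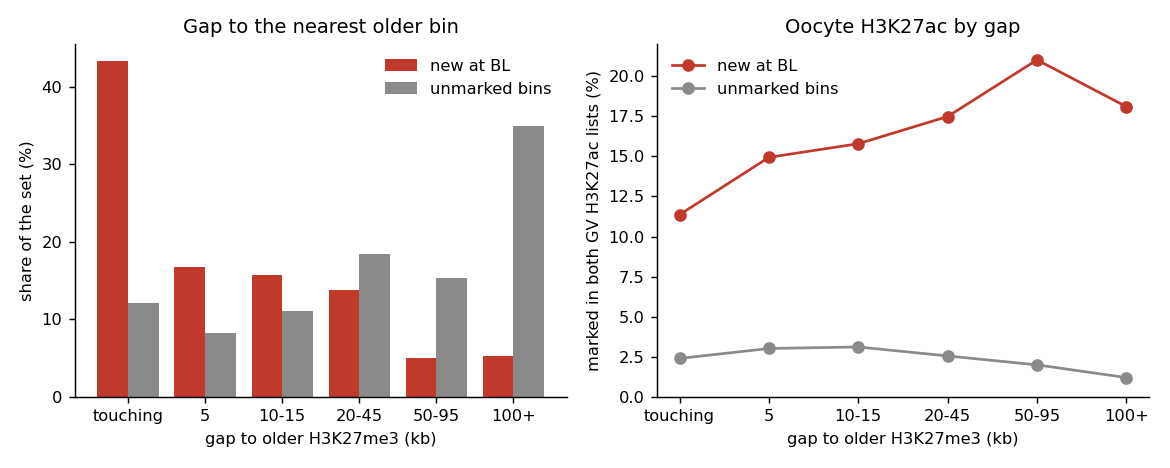
Gap to the nearest bin of older H3K27me3 for bins new at BL (red) and unmarked bins (grey): the left panel gives the share of each set (%) by gap in kb, and the right panel the share (%) marked in both GV H3K27ac lists at each gap. New bins are crowded at the short gaps (43.4% touching against 12.1%), and at every gap their share with oocyte H3K27ac, 11.4% to 21.02%, is above that of unmarked bins, 1.198% to 3.11%.

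The older bins that new bins touched were most often those of the morula. The median gap to a bin in both lists of a stage was 25 kb for MO, 45 kb for GV, 80 kb for 4C, 110 kb for 2C and 125 kb for 8C, and for unmarked bins the gaps were 325, 275, 480, 435 and 830 kb. Of the 5565 older bins next to a new bin, 57.8% were marked in either or both MO lists, against 34.8% of all 105406 older bins. Counted in the same way, the share was 43.6% against 56.6% for GV, 11.7% against 30.0% for 2C, 19.6% against 36.0% for 4C and 14.7% against 32.7% for 8C. Both BL lists still marked 86.7% of these neighbours, against 36.7% of all older bins.

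In the blastocyst lists, 44.6% of new bins in replicate 1 and 45.5% in replicate 2 fell in a peak that also held an older bin. Among new bins that touched an older bin the shares were 81.3% and 81.8%. The peaks over new bins had a median width of 12.6 and 13.0 kb, against 21.4 and 22.4 kb over older BL bins. The authors' score per kb of those peaks had a median percentile within its list of 46.6 and 52.5 for new bins and 74.6 and 77.7 for older BL bins. New H3K27me3 thus lay in narrower peaks of lower score than the H3K27me3 of older BL bins.

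Both lineages carried most of the new H3K27me3, the TE more of it than the ICM. The ICM libraries, which the rule did not use, marked 63.6% and 64.3% of new bins, and the TE libraries 83.3% and 87.1%. Both TE values were above both ICM values, but with 2 libraries on each side the smallest two-sided p of an exact permutation test is 0.333, so the order is given without a test. Among older BL bins the shares were 85.2% and 85.3% in ICM and 91.8% and 94.0% in TE. The ICM marked 0.874% and 0.863% of unmarked bins and the TE 0.691% and 0.717%. Over all autosomal bins the lists differed less, with 10.1% marked in each ICM list and 11.05% and 11.5% in the TE lists. The ICM lists covered 246 Mb each and the TE lists 268 and 278 Mb; with all H3K27me3 lists shortened to 110.0 Mb, the mean shares of new bins were 62.8% in ICM and 82.1% in TE. A bin can be missed in a pool either because fewer cells carry the mark or because each cell carries less of it, and these cannot be told apart. The whole blastocyst contains both lineages, so a bin marked in 1 lineage can be marked in BL. New bins had to be marked in BL, and a lineage with more of the cells could pass that choice more easily. The part of this in the order of TE and ICM was not tested, and among unmarked bins the ICM shares were the higher ones.

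Both ICM lists marked 6231 new bins (background 8.89%) and both TE lists marked 8807 (background 9.95%). The mark was in both lists of both lineages in 5109 new bins, 45.3% of them against 74.9% of older BL bins and 7.06% of all bins. It was in both TE lists and no ICM list in 2318 new bins, 20.6% against 8.56% of older BL bins and a background of 1.94%. It was in both ICM lists and no TE list in 435 new bins, 3.86% against 2.49% of older BL bins and a background of 1.16%. Another 251 new bins (2.23%) were in none of the 4 lineage lists, against 0.688% of older BL bins and 85.2% of all bins. The remaining 3163 had 1 list of a lineage: 1380 had both TE lists and 1 ICM list, 687 both ICM lists and 1 TE list, 510 only 1 TE list, 396 1 list of each and 190 only 1 ICM list.

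**Figure D2:**
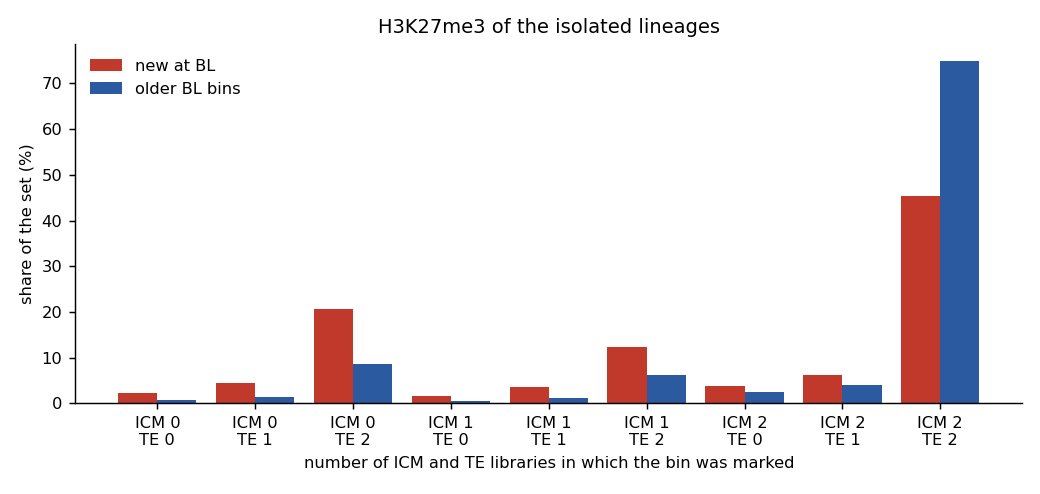
Share (%) of bins new at BL (red, 11276 bins) and of older BL bins (blue, 38674 bins) by the number of ICM and TE libraries whose H3K27me3 list marked the bin. New bins are less often in all 4 lists (45.3% against 74.9%) and more often in both TE lists alone (20.6% against 8.56%).

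The count of TE-only new bins exceeded the count of ICM-only new bins under all 25 settings compared, the reported one included, by 2.85 times (without TE replicate 2) to 6.80 times (with 25% coverage). All of these settings chose the bins by BL lists, so they do not check the order apart from that choice. The ICM-only count depended on single libraries: it was 875 without TE replicate 2, 682 without TE replicate 1, 792 without BL replicate 1 and 741 without BL replicate 2. TE-only bins touched older H3K27me3 in 35.2% of cases and ICM-only bins in 43.0%, against 46.2% for bins in both lineages and 54.2% for bins in neither. No base of earlier H3K27me3 was found in 78.6% of TE-only bins and 64.6% of ICM-only bins.

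H3K27ac in the lineages mirrored this split. In TE-only bins, at least 1 base of H3K27ac lay in 15.5% and 13.5% of bins in the ICM libraries and in 1.42% and 2.33% in the TE libraries. In ICM-only bins the order was the other way round, with 3.68% and 2.53% in ICM and 9.43% in each TE library. Bins with H3K27me3 in both lineages had H3K27ac in 2.39% and 1.33% (ICM) and 0.607% and 0.705% (TE). Over all new bins, both ICM H3K27ac lists reached 438 (3.88%, background 10.3%) and both TE lists 120 (1.06%, background 7.67%). Read against those backgrounds, both ICM lists reached 11.9% of TE-only bins and both TE lists 8.74% of ICM-only bins, close to the share of any bin. The lineage that held H3K27me3 lay far below, at 0.949% in TE for TE-only bins and 2.07% in ICM for ICM-only bins.

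**Figure D3:**
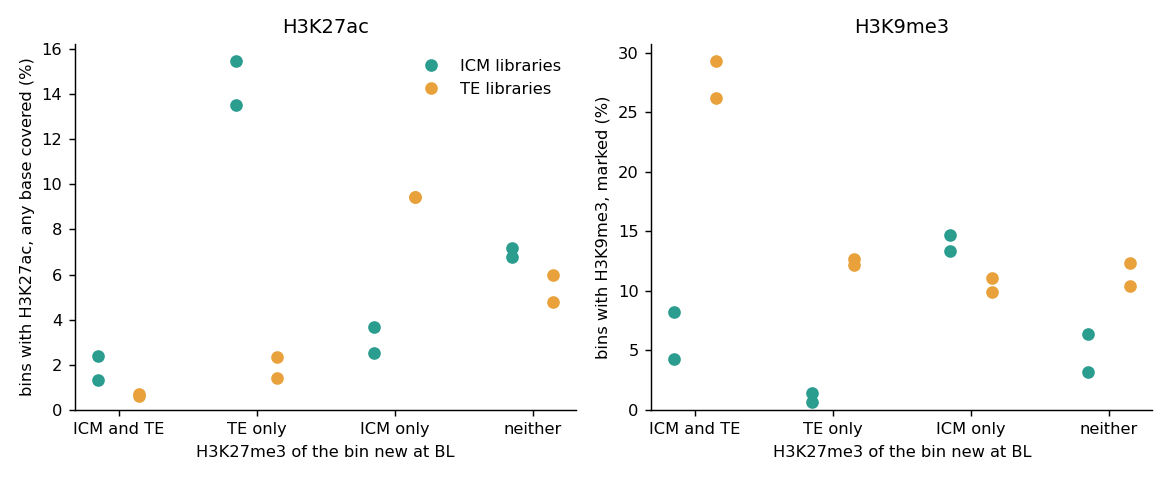
Share (%) of new bins, by their H3K27me3 in the lineages, with any base of H3K27ac (left) or marked by H3K9me3 (right) in each ICM (green) and TE (orange) library, 1 point per library. H3K27ac in ICM is highest in TE-only bins (13.5% and 15.5%) and H3K27ac in TE is highest in ICM-only bins (9.43% in both libraries).

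Open chromatin over the new bins was above or below that over all bins depending on the coverage asked for. With any covered base, an ATAC peak touched 2503 new bins in all 3 BL libraries (22.2%, background 16.1%), 2281 in all 3 ICM libraries (20.2%, background 15.1%) and 1964 in all 3 TE libraries (17.4%, background 14.1%). Older BL bins had 24.3%, 20.98% and 19.1%. With 50% coverage the direction against all bins turned: the mean share of new bins was 1.26% ± 0.658 (SD, n = 3) in BL, 0.860% ± 0.372 in ICM and 0.636% ± 0.271 in TE, against 1.37%, 1.02% and 1.16% of all bins. Unmarked bins had means of 0.847%, 0.731% and 0.825%, so the mean of new bins was above theirs in BL and ICM and below it in TE. In TE-only bins the shares with any ATAC base were 36.0%, 35.2% and 36.3% in the ICM libraries and 26.96%, 27.8% and 28.0% in the TE libraries. The ICM and TE values did not overlap, but this was not particular to TE-only bins. Over all new bins the shares were 24.6%, 23.7% and 24.6% in ICM and 20.3%, 21.5% and 21.6% in TE. Over all autosomal bins they were 18.7%, 17.7% and 18.4% in ICM and 16.4%, 17.1% and 17.8% in TE. In ICM-only bins the shares with any ATAC base were 22.3%, 21.8% and 21.6% in ICM and 24.8%, 25.3% and 24.8% in TE.

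Before they gained H3K27me3, new bins carried oocyte H3K27ac more often than other bins. The GV H3K27ac libraries marked 16.2% and 19.3% of new bins, a mean of 17.8% ± 2.20 (SD, n = 2), against 2.99% and 3.602% of all bins. Older BL bins had 6.10% and 7.79% and unmarked bins 2.38% and 2.85%, so both GV libraries were higher over new bins than over either other set. The rule keeps GV H3K27me3 out of new and unmarked bins, while the GV H3K27me3 lists marked 63.6% and 59.3% of older BL bins. The part of that difference in the contrast with older BL bins was not tested. Both GV H3K27ac lists marked 1618 new bins (14.3%), where the background was 2.60%. The level depended on how much of a bin had to be covered: with any base, the GV libraries reached 64.1% and 63.5% of new bins against 19.0% and 18.8% of all bins, and with 75% coverage the mean fell to 6.97%. The ratio of new bins to all bins stayed between 3.37 and 7.33 under every alternative run.

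The same mark was scarcer over new bins after fertilization and fell below background at the morula. The H3K27ac lists covered 127 and 142 Mb at GV, 55.0 and 67.8 Mb at 2C and 43.4 and 44.0 Mb at 4C. The mean share of all bins also fell over these stages, from 3.29% to 0.705% and 0.156%. The part of list length in the fall over new bins was not tested. At 2C the H3K27ac libraries marked 1.92% and 3.43% of new bins, with 124 (1.10%) in both lists (background 0.315%). At 4C the values were 0.585% and 0.532%, with 32 bins (0.284%) in both lists (background 0.0858%), and at 8C 4.09% and 3.95%, with 345 (3.06%) in both lists (background 1.40%). At MO the libraries marked 1.21% and 1.37% of new bins and 2.68% and 2.72% of all bins, with 103 new bins (0.913%) in both lists (background 2.10%). At BL, where the bins carried H3K27me3, they marked 0.0443% and 0.0355%, and both lists held 3 bins (background 0.935%). The 8A libraries, from embryos grown with the inhibitor of transcription, marked 4.35% and 4.88% of new bins and 1.47% and 1.64% of all bins, a ratio of the means of 2.97, against 2.10 at 8C, where all bins had 1.98% and 1.85%. Older BL bins had 8.50% and 9.29% in 8A and 3.67% and 3.39% in 8C.

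**Figure D4:**
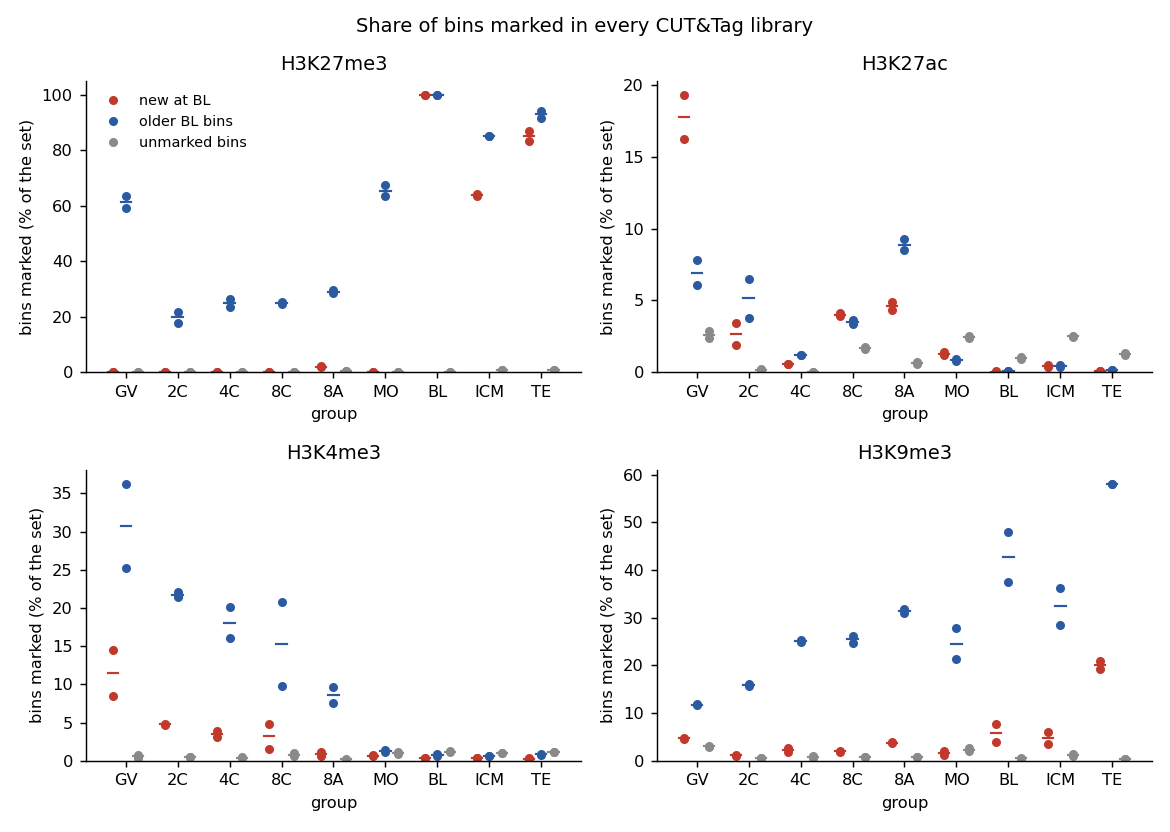
Share (%) of bins marked in each CUT&Tag library, 1 point per library with a bar at the mean of 2, for bins new at BL (red), older BL bins (blue) and unmarked bins (grey), with 1 panel per mark and groups in order of development. The red H3K27ac points are highest at GV (16.2% and 19.3%) and lowest at BL (0.0355% and 0.0443%), and in H3K9me3 they are highest in TE (19.2% and 20.96%).

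Seen from the earlier mark, bins with H3K27ac and no earlier H3K27me3 were more often new at BL than other bins when the H3K27ac was that of the oocyte or of cleavage, and less often when it was that of the morula. Of 9994 such bins marked in both GV lists, 16.2% were new at BL, against 2.87% of all bins without earlier H3K27me3. The share was higher at 2C (29.9% of 415 bins) and 4C (30.2% of 106 bins), where few bins carried the mark. At 8C it was 6.90% of 4998 bins and at MO 1.42% of 7273. The oocyte H3K27ac of new bins was not limited to those beside older H3K27me3. It was in both GV lists in 11.4% of new bins that touched an older bin, 14.9% at a gap of 5 kb, 15.8% at 10 to 15 kb, 17.5% at 20 to 45 kb, 21.02% at 50 to 95 kb and 18.1% at 100.0 kb or more. Unmarked bins at the same gaps had 2.39%, 3.01%, 3.11%, 2.55%, 1.99% and 1.198%.

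Most of the 1618 members with oocyte H3K27ac were not marked by it at any one later stage, while at 2C, 4C and 8C they were marked more often than bins in general. Both lists marked 72 of them at 2C (4.45%, background 0.315%), 20 at 4C (1.24%, background 0.0858%), 118 at 8C (7.29%, background 1.40%), 44 at MO (2.72%, background 2.10%) and 2 at BL (0.124%, background 0.935%). At 2C the libraries marked 6.86% and 12.4% of them, against 1.10% and 1.94% of the other members. At MO they were near background and at BL below it. H3K4me3 was in both GV lists in 412 of them (25.5%), and H3K9me3 in both GV lists in 0 of the 1618. Their H3K27me3 at the blastocyst was spread over the lineages much like that of the other members: the ICM libraries marked 65.5% and 62.9% of them against 63.3% and 64.6% of the rest, and the TE libraries 87.8% and 90.2% against 82.5% and 86.5%. Of the 345 members with 8C H3K27ac, the mark was also in both GV lists in 118 (34.2%), in both 8A lists in 121 (35.1%), in both MO lists in 30 and in both BL lists in 1.

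H3K4me3 also declined over the new bins as development went on, but from a level below that of older BL bins. The GV libraries marked 8.44% and 14.6% of new bins, against 2.88% and 4.40% of all bins and 25.3% and 36.3% of older BL bins. Both lists held 828 new bins (7.34%, background 2.60%). The count in both lists was 361 at 2C (background 1.95%), 270 at 4C (background 1.63%), 169 at 8C (background 1.36%), 61 at MO (background 0.872%) and 33 at BL (background 1.10%). As shares of the new bins these were 3.20%, 2.39%, 1.499%, 0.541% and 0.293%, so new bins were above background at GV, 2C and 4C, near it at 8C and below it at MO and BL. At 8C the replicates stood apart, at 1.56% and 4.87%. Of the 2344 bins without earlier H3K27me3 that carried H3K4me3 in both GV lists, 35.3% were new at BL, and for 2C, 4C, 8C and MO the shares were 20.4%, 18.3%, 7.60% and 1.85%. With the H3K27me3 lists shortened to 1 covered length, the mean GV share of H3K4me3 in new bins was 20.2%, and with 75% coverage it was 2.79%.

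Taking both active marks and all 5 earlier stages, 2373 new bins (21.04%) had H3K27ac or H3K4me3 in both lists of some stage, where the background was 7.81% and older BL bins had 31.9%. The kind of mark differed between new and older BL bins, of which by the rule only the older BL bins were marked by H3K27me3 at those stages. H3K27ac without H3K4me3 was found in 1356 new bins (12.03%) against 3.40% of older BL bins, and H3K4me3 without H3K27ac in 440 new bins (3.90%) against 22.2% of older BL bins. Both marks were found in 577 new bins (5.12%) against 6.28%. With any covered base in place of 50%, 8812 new bins (78.1%) had an earlier active mark, against a background of 37.4% and 85.7% of older BL bins, and 2464 (21.9%) had none.

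H3K9me3 marked new bins most often in the trophectoderm, and the same held for older BL bins. The TE libraries marked 19.2% and 20.96% of new bins, against 6.36% and 6.42% of all bins, 58.0% and 58.1% of older BL bins and 0.410% and 0.416% of unmarked bins. The ICM libraries marked 3.46% and 6.04% of new bins against 3.94% and 5.22% of all bins, and the whole blastocyst 4.04% and 7.80% against 4.05% and 5.49%, which is near the share of any bin. With any covered base, the BL libraries reached 10.3% and 16.6% of new bins against 6.49% and 8.20% of all bins. Of older BL bins, the ICM libraries marked 28.5% and 36.2% and the BL libraries 37.4% and 48.0%. At GV the libraries marked 4.59% and 4.83% of new bins, below the 7.75% and 7.65% of all bins, and 368 new bins (3.26%, background 6.06%) were in both lists. Between 2C and MO the libraries of the untreated stages marked 1.09% to 2.67% of new bins and 4.51% to 7.27% of all bins. Both TE lists held 1439 new bins (12.8%, background 5.15%) and both ICM lists 236 (2.09%, background 3.21%). H3K9me3 in both TE lists and no ICM list was found in 1090 new bins, 9.67% against a background of 1.98% and 17.6% of older BL bins, and the reverse in 69 (0.612%, background 0.845%). The H3K9me3 lists covered 100.3 and 134 Mb at BL, 96.6 and 128 Mb in ICM and 153 and 154 Mb in TE, so the TE lists were the longest of these 3 groups. The GV lists, at 188 and 186 Mb, and the 4C lists, at 163 and 177 Mb, were longer than the TE lists and marked fewer new bins. The part of list length in the differences was not tested. With the H3K27me3 lists shortened to 1 covered length, the TE mean in new bins was 42.2%.

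H3K9me3 in the TE was most frequent where both lineages held H3K27me3. In those bins the TE libraries marked 26.2% and 29.3% and the ICM libraries 4.29% and 8.24%. In TE-only bins the TE libraries marked 12.2% and 12.7% and the ICM libraries 0.647% and 1.38%. In ICM-only bins the ICM libraries marked 13.3% and 14.7% and the TE libraries 9.89% and 11.03%. The share with H3K9me3 in both TE lists fell with the gap to older H3K27me3, from 16.6% of touching bins to 1.18% at 100.0 kb or more, and it fell likewise in unmarked bins, from 0.695% to 0.0375%.

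The longest run lay on chromosome 9, from 42310001 to 42380000 (positions 1-based on ARS-UCD1.2), 190 kb from the nearest older bin. H3K27me3 covered 87.1% and 93.7% of it at BL, 86.9% and 90.6% in TE and 38.9% and 31.1% in ICM, and 0 bases of it in the 10 earlier lists. H3K27ac covered 26.4% and 29.6% at GV, 11.7% and 9.07% at 2C and 14.3% and 15.1% at 4C. It covered 3.21% and 1.36% at 8C, 2.36% and 1.64% at MO and 0 bases at BL. In the isolated lineages H3K27ac covered 5.93% and 3.43% of the run in ICM and 0 bases in TE. A stretch of 40 kb inside it, from 42330001 to 42370000, was the longest TE-only run, with 18.0% and 1.00% covered in ICM against 88.0% and 92.0% in TE. The flanks of the run, which were not joined to it, also carried H3K27me3 in BL and TE and, in places, in both ICM libraries.

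**Figure D5:**
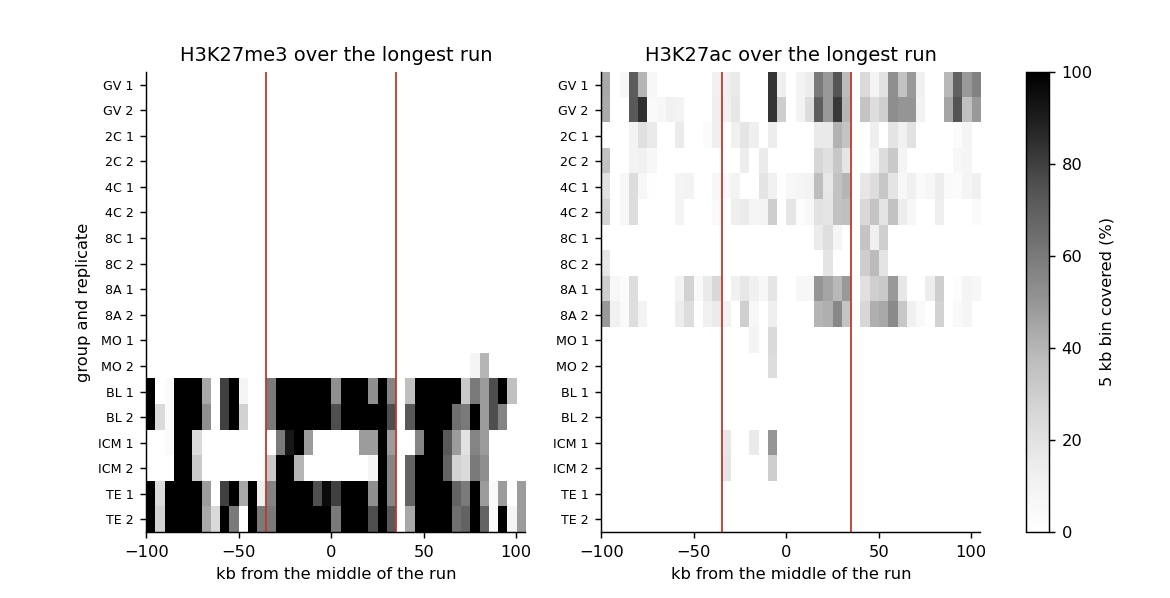
Coverage (%) of each 5 kb bin by H3K27me3 (left) and H3K27ac (right) in every library, in a window of 100 kb on each side of the middle of the longest run on chromosome 9, whose ends are the red lines. H3K27me3 over the run is found in BL, in TE and in part in ICM, and H3K27ac over parts of it, most at GV (26.4% and 29.6% of the run).

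Other long runs repeated parts of this picture and departed from it in others. On chromosome 26, from 39610001 to 39660000, GV H3K27ac covered 62.0% and 66.3%, MO H3K27ac 4.00% and 1.10%, and BL H3K27me3 95.6% and 93.2%. On chromosome 17, from 61400001 to 61455000, GV H3K27ac covered only 5.64% and 6.55%, while GV H3K9me3 covered 48.4% and 50.2%. On chromosome 19, from 39595001 to 39650000, H3K27me3 covered 96.0% and 95.3% in TE and 32.4% and 27.6% in ICM. On chromosome 6, from 16720001 to 16770000, the order was reversed, with 98.0% in each ICM library and 78.8% and 92.0% in TE. The other 5 of the 10 longest runs lay on chromosomes 4, 13 (which held 2), 27 and 8 and were 45 to 60 kb long.

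The runs that differed between lineages showed the opposite H3K27ac in single cases. On chromosome 19, from 42490001 to 42525000, H3K27me3 covered 89.1% and 94.9% in TE and 0 bases in ICM. H3K27ac covered 56.9% and 53.6% of that run in ICM and 1.71% and 0% in TE, after 59.9% and 62.3% at GV and 52.6% and 57.0% at MO. On chromosome 2, from 85830001 to 85845000, H3K27me3 covered 93.3% in each ICM library and 0 bases in TE, and H3K27ac covered 17.7% and 14.0% in TE and 0 bases in ICM. The longest ICM-only run, on chromosome 5 from 73180001 to 73200000, had 99.0% and 100.0% H3K27me3 in ICM and 12% and 11% in TE, with no H3K27ac in either lineage. The TE-only run on chromosome 15, from 27295001 to 27325000, had H3K9me3 over 62.0% and 60.7% of its bases in TE.

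Runs with earlier active marks lost them by the blastocyst to different degrees. On chromosome 11, from 24440001 to 24470000, GV H3K27ac covered 85.7% and 84.2%, 2C H3K27ac 11% and 24.8%, MO H3K27ac 2.83% and 0%, and BL H3K27ac 0%. On chromosome 16, from 29110001 to 29130000, H3K4me3 covered 65.2% and 70.0% at GV, and H3K27ac 84.0% and 84.2% at 8C, 42.2% and 40.5% at MO and 8.25% and 7.75% at BL. BL H3K27me3 covered 83.0% and 87.0% of that run. Among the 33 members with both H3K4me3 BL lists, the bin on chromosome 3 from 14160001 to 14165000 was fully covered by H3K27me3 in both BL and both TE libraries and not at all in ICM, where H3K27ac covered 84.0% and 81.0%. The other named bins of this class had no H3K27ac in either lineage. On chromosome 1, from 72860001 to 72865000, H3K27me3 covered 76.0% in each ICM library and 56.0% and 100.0% in TE. On chromosome 3, from 2710001 to 2715000, it covered 100.0% and 76.0% in ICM and no base in TE. The member farthest from older H3K27me3 was on chromosome 17, from 29905001 to 29910000, at 925 kb. H3K27me3 covered 80.0% of it in each BL library, 68.0% and 72.0% in ICM, and 68.0% and 76.0% in TE.

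New bins were found on every autosome, at 0.891% of the bins of chromosome 6 up to 4.86% of chromosome 25 and 4.59% of chromosome 19. The overall level of BL H3K27me3 also differed among these 3 chromosomes: both BL lists marked 5.31% of chromosome 6, 19.0% of chromosome 25 and 21.3% of chromosome 19. As a share of the bins marked in both BL lists, new bins ranged from 16.8% on chromosome 6 to 31.9% on chromosome 15. Along the chromosomes, divided into 10 equal parts in the direction of the coordinates, the new share was 1.83% to 2.57% except in the ninth, at 3.38%. In the last part, where both BL lists marked 32.1% of bins and an earlier list 55.6%, the new share was 2.57%.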

How the data were processed

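Per the submitters' processing notes, reads were handled with BWA 0.7.9a, SAMtools 1.9, Picard 2.26.10, SICER, cutadapt 1.8.3 and Trim Galore 0.4.0 on the build ARS-UCD1.2. The 81 peak lists, 1 per library, are named for epic2, and their last column is a score the authors deposited with each peak. The peak cutoff, the control and the treatment of duplicates were not given in the sources used here. No read depth was known, so no counting interval is given. Deposited ends were the last base counted from 0, and 1 was added.

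Autosomes were divided into 5 kb bins, and a bin was marked in a list when at least 50% was covered. The score served only for percentiles of score per kb and for shortening lists. With 2 libraries per group, shares are given per library beside all bins, older BL bins and unmarked bins, without tests, since bins are not replicates. The members and lists were chosen with earlier results of these data known. Regions were named by a rule: the 10 longest runs, the 3 longest of each lineage-restricted or active-mark class, and the 3 farthest from older H3K27me3. The binning was tested on simulated data. Alternatives were other coverages, bin sizes and starts, shortened lists, other meanings of earlier, 8A as an earlier stage, and leaving out each library. The X chromosome and unplaced scaffolds were left out of the main counts. Genes and sequences were not used here, because the gene table at hand was of ARS-UCD2.0. Computing used Python 3.11.15, NumPy 2.4.6 and pandas 2.3.3.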

Additional observations from a re-analysis of the deposited data

Results flagged for a closer look

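The X chromosome lay outside the autosomal bins. By the same definition it held 541 new bins, 1.95% of its 27802 bins and 30.4% of the 1777 marked in both BL lists. H3K27me3 marked 94.8% and 94.3% of them in the ICM libraries and 49.5% and 61.4% in the TE libraries, the opposite order to the autosomes. Over all X bins the ICM libraries marked 15.8% and 14.99% and the TE libraries 5.16% and 6.15%. Oocyte H3K27ac marked 7.39% and 9.98% of the new X bins, against 1.09% and 1.40% of all X bins. The difference between the X chromosome and the autosomes was not tested.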

How the results depend on the processing

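No paired analysis was possible because no result came from a test. The number of new bins was 27108 with bins of 2 kb, 5818 with 10 kb, 3028 with shortened lists and 17374 when earlier meant both lists of a stage. The touching share was 41.6% at 25% coverage, 26.3% with 2 kb and 50.9% with 10 kb bins, 48.4% with shortened lists, 39.0% with both lists of a stage, 48.0% with older H3K27me3 as any covered base and 17.4% with both MO lists. The ICM share was 63.3% at 75% coverage, 64.7% with 10 kb bins, 62.8% with shortened lists and 67.8% with both lists of a stage. The TE share was 88.5% and 80.2% at 25% and 75% coverage and 82.1% with shortened lists, and the 8A share 4.55% with both lists of a stage. ICM-only bins numbered 1018 (2 kb), 248 (10 kb), 141 (shortened) and 660 (both lists of a stage), and TE-only bins 5509, 1143 and 629 in the first 3 of these settings. The GV H3K27ac share was 36.9% and 6.97% at 25% and 75% coverage, 23.5% and 13.0% with 2 kb and 10 kb bins, 63.8% with any base and 15.5% with both lists of a stage. The GV H3K4me3 share was 33.1% and 2.79%, 19.0% and 7.05%, 20.2% with shortened lists and 67.9% with any base. The TE H3K9me3 share was 42.2% with shortened lists, 29.5% with any base and 24.5% with both lists of a stage. Leaving out 1 library at a time gave 41.1% to 43.9% for touching, 55.1% to 66.2% for ICM, 74.8% to 87.1% for TE, 1.69% to 2.48% for 8A, 435 to 875 for ICM-only bins, 15.4% to 19.3% for GV H3K27ac and 16.1% to 22.2% for TE H3K9me3. The causes were not tested. In 25 of 25 settings, all of which chose bins by BL lists, TE-only bins outnumbered ICM-only bins. Of 368 values recomputed for other stages, 228 moved by no more than 1 SD between replicates. Some of these values left out 1 of the 2 libraries behind the SD itself. Their move is below 1 SD by arithmetic, so they say nothing about stability. The unknown depth limits every share, because a longer list marks more bins.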
